A study of Mus musculus with 12 samples.

Results

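Gm2a and 7 genes that act with it in the breakdown of sphingolipids in the lysosome (Hexa, Gla, Neu1, Psap, Glb1, Galc and Asah1) were followed in mural granulosa cells (MGCs, the granulosa cells of the follicle wall) and in cumulus cells (those around the oocyte). Gm2a was chosen because its transcript was lower in knockout MGCs, and the other 7 because their products work beside it in the lysosome. The 8 genes are 8 of the 35856 genes listed in the deposited tables, and all 8 are among the 26382 genes listed for both cell types. The females had been primed with eCG, and the cells were collected at 2 h post-hCG, the hormone that stands in for the ovulatory surge of LH. WT mice were compared with Sphk1/2gc-/- mice, which carry Sphk1-/-, Sphk2 fl/fl and Fshr-Cre. In that model Sphk1 is deleted in the whole animal, whereas Sphk2 is removed by a Cre that the Fshr promoter drives in granulosa cells, so that the genotype is not that of 1 cell type alone. There were 3 libraries for each genotype and cell type, 12 libraries in all. Nothing states whether a library came from 1 animal or from a pool, so the p-values measure the spread between libraries only.

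Gangliosides and other glycosphingolipids reach the lysosome with membrane taken up from the cell surface, and there their sugars are removed from the outer end inwards. The GM2 activator protein, the product of Gm2a, lifts ganglioside GM2 out of the membrane and presents it to beta-hexosaminidase A, whose alpha subunit Hexa encodes. The saposins, cut from the single precursor that Psap encodes, serve other enzymes of the same route in this way. The end product is ceramide, which acid ceramidase (Asah1) splits into a fatty acid and sphingosine, and sphingosine is the substrate of the 2 sphingosine kinases that Sphk1 and Sphk2 encode.

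The promoter of Gm2a is shown because its transcript differed most between the genotypes among the 8, and stretches of the Gla and Glb1 promoters are shown because they alone of the members searched held an E-box. The letters CACGTG, on either strand (the motif is its own complement), were sought in the 250 bases before each start in the promoter table of RefSeq (GRCm38.p6). This motif is the core of the site to which TFEB, a factor that switches on lysosomal genes, is known to bind. Of the 8 members, 7 have an entry (all but Asah1). Capitals mark CACGTG, and each sequence is read 5′ to 3′ on the strand of its gene: Gm2a from chr11:55097735-55097984 (plus strand), Gla from chrX:134601174-134601252 (minus strand) and Glb1 from chr9:114401010-114401055 (plus strand).
Gm2a: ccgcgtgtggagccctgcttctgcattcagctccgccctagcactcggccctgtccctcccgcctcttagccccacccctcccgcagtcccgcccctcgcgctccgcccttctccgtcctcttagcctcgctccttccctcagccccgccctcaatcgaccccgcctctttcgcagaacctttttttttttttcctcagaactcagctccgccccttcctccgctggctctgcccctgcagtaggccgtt
Gla: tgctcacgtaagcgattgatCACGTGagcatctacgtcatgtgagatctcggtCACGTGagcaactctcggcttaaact
Glb1: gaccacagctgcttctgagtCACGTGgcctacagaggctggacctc
Gla held the motif 2 times, at 227 and 194 bases before its start, and both matches lay within the longer letters TCACGTGA, which 0.907% of all genes in the table hold. Glb1 held it 1 time, at 48 bases before its start. Thus 2 of 7 members (28.6%) held it, against 6.86% of the 27025 genes in the table. It was in 37.5% of 8 other genes of lysosomal sphingolipid breakdown and in 33.3% of 21 other lysosomal hydrolases. The shares were 27.8% of 18 genes of the lysosomal membrane and proton pump and 50.0% of 8 that deliver lysosomal enzymes. The share of the members is thus not particular to them among lysosomal genes. The 250 bases of Gm2a, of Hexa, of Neu1, of Psap and of Galc held none. These matches are letters in a window and say nothing of binding.

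Levels are given in FPKM, which takes account of the exon length of a gene and of how much was sequenced, and each cell type has a table of its own. Multiplied by exon length, they stand for 16100365 to 19761604 reads per library, and for 540 to 17647 reads of a member in an MGC library but only 31 to 2947 in a cumulus cell library. WT MGCs held Sphk1 at 0.460 to 1.89 FPKM, Sphk1/2gc-/- MGCs at 0.104 to 0.557 FPKM, so that the genotypes overlapped. In cumulus cells it was higher in 2 of the 3 libraries labelled Sphk1/2gc-/- (0.456 and 0.557 FPKM) than in any WT library (0.0699 to 0.0954 FPKM), and Sphk2 overlapped between the genotypes in both cell types. The transcript levels of the targeted genes therefore do not check the labels in cumulus cells and do not fully separate them in MGCs, and directions are given as the labels have them. The paper reported depletion of SphK2 protein in granulosa cells of this model by immunofluorescence and western blotting, which is not a check of these libraries. Markers of mural granulosa cells summed to 525 to 1160 FPKM in WT MGCs and to 27.6 to 72.3 FPKM in WT cumulus cells, as the labels imply. The 5 cumulus cell markers summed to more in WT MGCs (1150 to 1430 FPKM) than in WT cumulus cells (327 to 723 FPKM). Tnfaip6, Ptgs2 and Npr2 were higher in WT MGCs. Has2 (12.72 to 18.28 against 31.86 to 74.62 FPKM) and Ptx3 (44.18 to 54.55 against 91.32 to 218.4 FPKM) were higher in WT cumulus cells. It is not stated that the tables were scaled together. Sphk1/2gc-/- MGC library 3 stood apart from the other 5 MGC libraries (Pearson r of 0.912 to 0.939 with them over 15279 genes), and the estimates of the members in MGCs are also given without it. As these are bulk samples, fewer cells of a type and less RNA per cell cannot be told apart.

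In MGCs, Gm2a stood at 61.1, 41.6 and 64.6 FPKM in the WT libraries, against 11.5, 12.7 and 13.4 FPKM in Sphk1/2gc-/- libraries 1, 2 and 3. The highest knockout library thus lay below the lowest WT library by a wide margin, and the 3 knockout libraries were close to each other. The means were 55.8 ± 12.4 and 12.5 ± 0.936 FPKM (SD, n = 3 each), a log2 fold change of −2.05 (SE 0.187) on the scale of log2(FPKM + 1), or 4.13-fold. Because this difference chose the gene, it is given as a description and without a test. It was −2.09 without knockout library 3, and between −2.24 and −1.93 with any single MGC library left out.

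Gm2a has 4 exon blocks at chr11:55098115-55113029 on the plus strand (GRCm38, GENCODE M21), and no exon of another gene overlaps them. Sphk1 is on the same chromosome, 61.4 Mb away. Within 250 kb on either side of Gm2a, 15 other genes are annotated and 8 of them were tested in MGCs, and none passed at an adjusted p of 0.05 or less. The nearest tested gene above 5 FPKM was Anxa6, a membrane-binding annexin, with a log2 fold change of −0.41 (limma adjusted p = 0.515). Gpx3, a secreted glutathione peroxidase, measured 169, 205 and 68.0 FPKM in WT MGCs against 42.3, 50.5 and 44.1 FPKM in the knockout, and its difference of −1.53 missed the limit (limma adjusted p = 0.299). Both were named after their values were seen.

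**Figure D1:**
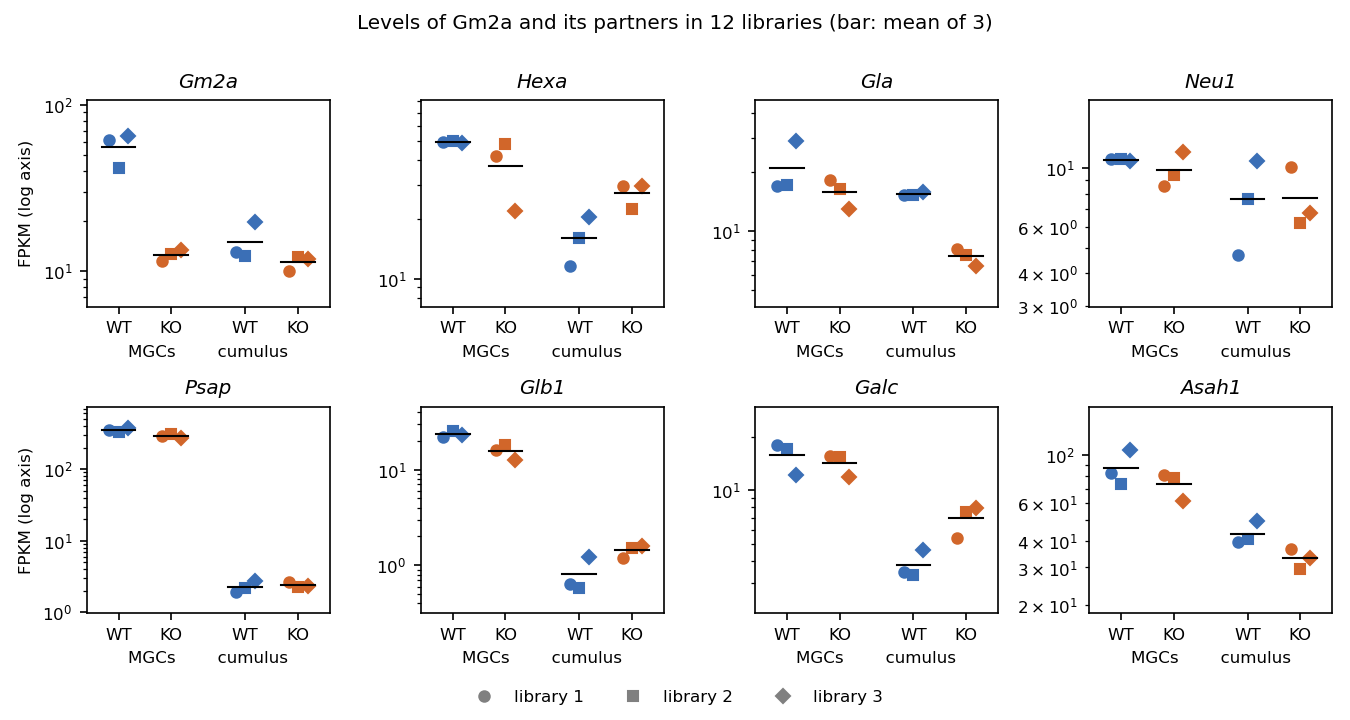
FPKM (log axis) of Gm2a and its 7 partners in each of the 12 libraries, with circles, squares and diamonds for libraries 1, 2 and 3, blue for WT, orange for Sphk1/2gc-/- (KO) and a bar for the mean of 3. In MGCs the knockout libraries of Gm2a (11.5 to 13.4 FPKM) lie well below those of WT (41.6 to 64.6 FPKM), whereas in cumulus cells Gla is lower and Hexa and Galc are higher in the knockout libraries.

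None of the 7 partners passed the test in MGCs, in the main setting or in any of the 14 alternatives. All 7 estimates were below 0, where 50.5% of the 15279 genes tested were, and their median log2 fold change was −0.28 against −0.003 over all genes. Of all 15279 genes tested 6 (0.0393%) passed, and 3 did with the library number as a block. That count turned on knockout library 3, since 278 genes passed without it. With libraries 1 and 2 of each genotype alone, which leaves out WT library 3 as well, 2486 passed. The number of partners that passed was 0 in either case. Before adjustment, 1 partner (Glb1) and 9.2% of all genes had a p of 0.05 or less. The test was limma with an intensity trend, adjusted over all genes by Benjamini-Hochberg.

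Among the partners that act on GM2 and its neighbours in the route, Hexa, the alpha subunit of beta-hexosaminidase A, measured 49.7, 50.2 and 48.9 FPKM in WT MGCs against 42.1, 48.7 and 22.0 FPKM in the Sphk1/2gc-/- ones. Its difference of −0.46 on the log2 scale (SE 0.28, limma adjusted p = 0.671) rested on knockout library 3, and without that library it was −0.13. Gm2a was therefore at 1.23, 0.829 and 1.32 times the FPKM of Hexa in WT MGCs and at 0.274, 0.26 and 0.608 times in the knockout ones. This ratio is a description only, since it is built on the Gm2a values that chose the gene.

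Psap, the saposin precursor, was by far the most abundant of the 8, with 57.3% ± 0.884 (SD, n = 3) of their summed FPKM in WT MGCs. WT libraries held 351, 329 and 381 FPKM of it against 287, 313 and 274 FPKM in Sphk1/2gc-/- MGCs, which is −0.28 on the log2 scale (SE 0.134, limma adjusted p = 0.587) and −0.23 without knockout library 3. Glb1, the beta-galactosidase that acts on GM1 just before GM2 is formed, reached 21.9, 25.1 and 23.1 FPKM in WT MGCs against 16.0, 18.3 and 12.6 FPKM in the knockout. Its log2 fold change of −0.56 (SE 0.16) had an unadjusted p of 0.01 in limma and an adjusted p of 0.349, and without knockout library 3 the change was −0.43. Hexa, Psap and Glb1 were the partners whose knockout libraries all lay below the WT libraries, 3 of 7, where 9.17% of all genes tested did the same.

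The other 4 partners overlapped between the genotypes in MGCs. Without knockout library 3 their estimates were −0.23 for Gla, −0.24 for Neu1, −0.0077 for Galc and −0.12 for Asah1. Gla, the alpha-galactosidase that removes the outer galactose of globosides, had 17.1, 17.3 and 28.8 FPKM in WT libraries against 18.2, 16.4 and 13.0 FPKM in knockout libraries (log2 fold change −0.36, limma adjusted p = 0.695). With libraries 1 and 2 of each genotype alone the estimate was 0.0036, as the high WT and the low knockout value are both in library 3. Neu1, the sialidase of gangliosides and glycoproteins, had −0.13 (limma adjusted p = 0.827), and Galc, which removes galactose from galactosylceramide, had −0.13 (limma adjusted p = 0.888). Asah1, acid ceramidase, ranged from 73.6 to 105 FPKM in WT and from 61.2 to 80.6 FPKM in Sphk1/2gc-/- MGCs (log2 fold change −0.24, limma adjusted p = 0.739, and 0.0253 with libraries 1 and 2 alone).

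The order of the 8 levels in WT MGCs was Psap (354 FPKM), Asah1 (87.4), Gm2a (55.8), Hexa (49.6), Glb1 (23.4), Gla (21.1), Galc (15.8) and Neu1 (10.8). Gm2a and Hexa overlapped there, as did Glb1 and Gla, and Gla and Galc. In Sphk1/2gc-/- MGCs the mean of Gm2a was the seventh of the 8, between Galc (14.3 FPKM) and Neu1 (9.80 FPKM), and its share of their summed FPKM was 2.69% ± 0.438 against 8.96% ± 1.40 in WT (SD, n = 3 each). Rank and share rest on the values that chose Gm2a and are descriptions.

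Some marker transcripts moved with genotype in the same MGC libraries. The 5 neutrophil markers summed to 150 to 228 FPKM in WT and to 8.11 to 36.0 FPKM in Sphk1/2gc-/- MGCs, all 5 estimates were below 0, and 0 of 5 passed in limma after adjustment (5 of 5 before). The 9 macrophage markers summed to 143, 116 and 44.7 FPKM in WT MGCs against 126, 148 and 26.2 FPKM in knockout MGCs, and Lyz2 alone made up 98.6, 80.1 and 27.3 FPKM of this in WT and 42.2, 55.1 and 8.49 FPKM in the knockout. Of the 9 estimates 8 were above 0 (median 0.51) and that of Lyz2 was below, and 0 passed in limma, with 0 before adjustment and 0 to 6 past the limit over the alternative settings. The 5 cumulus cell markers summed to 1430, 1320 and 1150 FPKM in WT against 2250, 1950 and 274 FPKM in knockout MGCs, the lowest in library 3, which stood apart. Markers of mural granulosa cells summed to 525 to 1160 FPKM in WT and to 379 to 485 FPKM in the knockout, those of theca cells to 134 to 220 and 60.9 to 152 FPKM, and those of endothelial cells to 11.7 to 15.1 and 7.65 to 9.26 FPKM. Oocyte markers overlapped (34.2 to 84.3 and 24.9 to 104 FPKM), as did the 7 granulosa cell markers (8590 to 14500 and 10800 to 11900 FPKM) and the leukocyte marker Ptprc (0.580 to 1.22 and 0.0544 to 1.51 FPKM). The part of these in the level of Gm2a was not tested.

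In cumulus cells, 3 of the 8 members passed the test, and they did not move together. Gla fell, and Hexa and Galc rose, in the libraries labelled Sphk1/2gc-/-. Here 22.3% of the 12205 genes tested passed (9.66% higher and 12.7% lower), so that 3 of 8 is read against a large background, and on the scale of log2(FPKM + 1) none of the 3 reached a 2-fold change, while 8.04% of all genes passed with one that large. Before adjustment 5 of 8 had a p of 0.05 or less, against 38.2% of all genes, and the median log2 fold change of the 8 was 0.06 against −0.06 over all genes.

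Gla, whose promoter holds the pair of E-boxes printed above, measured 15.2, 15.3 and 15.9 FPKM in WT cumulus cells against 8.08, 7.59 and 6.63 FPKM in those labelled Sphk1/2gc-/-. The libraries of each genotype were tightly grouped and far from the other group. Its mean went from 15.5 ± 0.362 to 7.43 ± 0.74 FPKM (SD, n = 3 each), or −0.97 on the scale of log2(FPKM + 1) (SE 0.14, limma adjusted p = 0.00364). The change was −1.05 with a pseudocount of 0.1, which is past 2-fold. It stayed past the limit in 13 of 14 alternative settings, the exception being libraries 1 and 2 alone (limma adjusted p = 0.0578).

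Hexa had 11.6, 16.2 and 20.5 FPKM in WT cumulus cells and rose to 29.5, 22.6 and 29.6 FPKM in those labelled Sphk1/2gc-/-. The genotypes did not overlap, though WT library 3 and knockout library 2 came close. The mean rose from 16.1 ± 4.47 to 27.2 ± 4.03 FPKM (SD, n = 3 each), or 0.75 on the log2 scale (SE 0.221, limma adjusted p = 0.044). That call held in 6 of 14 alternative settings and was lost when any library other than WT library 3 was left out (limma adjusted p of 0.0571 to 0.136 without one of those 5).

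Galc had 3.49, 3.33 and 4.59 FPKM in WT cumulus cells against 5.38, 7.54 and 7.91 FPKM under the Sphk1/2gc-/- label. All knockout libraries were above all WT libraries. The log2 fold change was 0.72 (SE 0.185, limma adjusted p = 0.0275), and the call held in 8 of 14 alternative settings. It was lost without WT library 1 (limma adjusted p = 0.0912), WT library 2 (0.102), knockout library 2 (0.0918) or knockout library 3 (0.098).

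Gm2a itself had 13.0, 12.2 and 19.6 FPKM in WT cumulus cells against 10.0, 12.1 and 11.8 FPKM in those labelled Sphk1/2gc-/-. The knockout libraries were all lower, yet knockout library 2 lay just under WT library 2. Its log2 fold change was −0.35 (SE 0.199, limma adjusted p = 0.235), and in 14 of 14 alternative settings it was below 0 without passing. The change in MGCs (−2.05) and that in cumulus cells (−0.35) are set side by side with no test of their difference, because the first of them chose the gene.

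Asah1 had an estimate close to that of Gm2a in cumulus cells, with 39.3, 40.6 and 49.5 FPKM in WT against 36.6, 29.4 and 33.2 FPKM under the knockout label (log2 fold change −0.37, SE 0.16, limma adjusted p = 0.127). Of the 8 members, 3 had all knockout libraries below WT (Gm2a, Gla and Asah1) and 2 had them all above (Hexa and Galc), beside 24.1% and 18.2% of all genes. Glb1 was at a low level, at 0.640, 0.573 and 1.23 FPKM in WT (31, 31 and 65 reads) against 1.20, 1.51 and 1.58 FPKM under the knockout label (68, 90 and 91 reads). Its estimate of 0.44 on the log2 scale (SE 0.174, limma adjusted p = 0.104) passed when WT library 3 was left out (0.59, limma adjusted p = 0.0451). Psap (0.07, limma adjusted p = 0.753) and Neu1 (0.04, limma adjusted p = 0.934) had estimates near 0, with standard errors of 0.149 and 0.278.

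**Figure D2:**
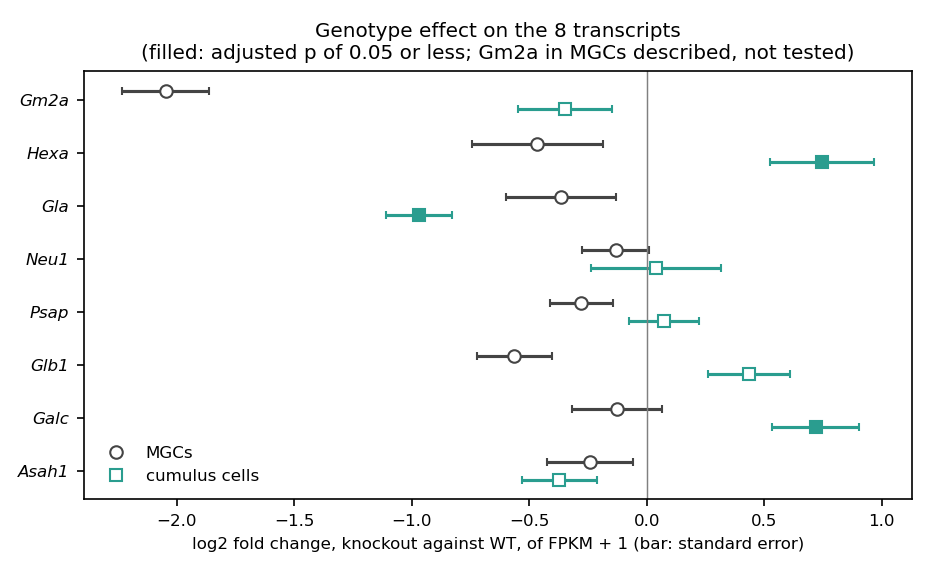
Log2 fold change of FPKM + 1 in Sphk1/2gc-/- against WT for the 8 transcripts, with its standard error, in MGCs (circles) and cumulus cells (squares), filled where the limma adjusted p was 0.05 or less and open otherwise. Gm2a in MGCs (−2.05) was described and not tested. All estimates in MGCs lie below 0, and in cumulus cells those of Gla (−0.97), Hexa (0.75) and Galc (0.72) are filled.

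The difference between these genotype effects, cumulus cells minus MGCs, was tested for the 7 partners in 1 model of the 12 libraries. It passed for Glb1 only, at 1.00 (SE 0.246, limma adjusted p = 0.0457), where 3.93% of 15869 genes passed. Glb1 was lower in every Sphk1/2gc-/- MGC library than in any WT one, and in cumulus cells WT library 3 (1.23 FPKM) lay just above knockout library 1 (1.20 FPKM). That call held in 8 of 20 alternative settings and was lost when any of WT MGC libraries 1, 2 and 3, knockout MGC library 1, WT cumulus cell libraries 1 and 2 or knockout cumulus cell libraries 2 and 3 was left out (limma adjusted p of 0.0505 to 0.123 without one of them). Hexa had a difference of 1.21 (SE 0.379, limma adjusted p = 0.091) and Galc of 0.85 (SE 0.273, limma adjusted p = 0.0981), both short of the limit. Gla had −0.60 (SE 0.275, limma adjusted p = 0.223), and Psap, Neu1 and Asah1 had 0.35, 0.17 and −0.13.

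The levels of 6 of the 8 transcripts were at least 2-fold higher in WT MGCs than in WT cumulus cells, although no test was made between the tables because it is not stated that they were scaled together. The share of all genes with such a difference was not counted. Among the genes compared by GC content below, the median log2 difference was 0.19, −0.07, −0.42 and −0.76 in eighths 1 to 4. It was −1.05, −1.53, −1.95 and −2.90 in eighths 5 to 8. Galc, Asah1 and Gm2a are in eighths 1, 2 and 4. Those genes were chosen by their level in WT MGCs, so their medians do not give that share. Without it, the 6 of 8 is not read as particular to the members. Psap was at 354 FPKM in WT MGCs and at 2.26 FPKM in WT cumulus cells, a ratio of 156, and Glb1 was at 23.4 and 0.815 FPKM, a ratio of 28.7. Gm2a (ratio 3.73), Hexa (3.08), Galc (4.15) and Asah1 (2.03) were also higher in WT MGCs, and Gla (1.36) and Neu1 (1.41) were nearly level. Asah1 thus led the 8 in WT cumulus cells with 41.6% ± 2.02 (SD, n = 3) of their summed FPKM, followed by Hexa (16.1 FPKM), Gla (15.5) and Gm2a (15.0), which overlapped, then Neu1 (7.64), Galc (3.8), Psap and Glb1. Neu1 and Galc did not overlap there.

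Base composition and transcript length both moved with these differences between the tables. The genes compared were protein-coding ones whose mean reached 5 FPKM in WT MGCs, with no such limit in WT cumulus cells. Such a choice by itself pushes the difference, cumulus cells minus MGCs, below 0. Over these genes sorted by the GC content of their longest transcript, the median log2 difference went from 0.19 in the lowest eighth to −2.90 in the highest. The eighth that holds Psap (54.7% GC) and Hexa (55.1% GC) had a median of −1.95, beside −7.23 for Psap and −1.62 for Hexa. Glb1 had −4.68 where its eighth had −1.05, Gm2a −1.89 where its eighth had −0.76, and Galc (38.3% GC) −2.02 where its eighth had 0.19. Over the same genes sorted by transcript length the median difference went from 0.66 in the shortest eighth to −1.63 in the longest. It was −1.27 in the eighth that holds Galc (4439 bases) and Gm2a (4127 bases). Among these genes the genotype difference varied little by GC in either cell type, with medians of 0.013 to 0.058 in MGCs and of −0.082 to 0.124 in cumulus cells. The part of GC content and length in the levels of single genes was not tested.

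**Figure D3:**
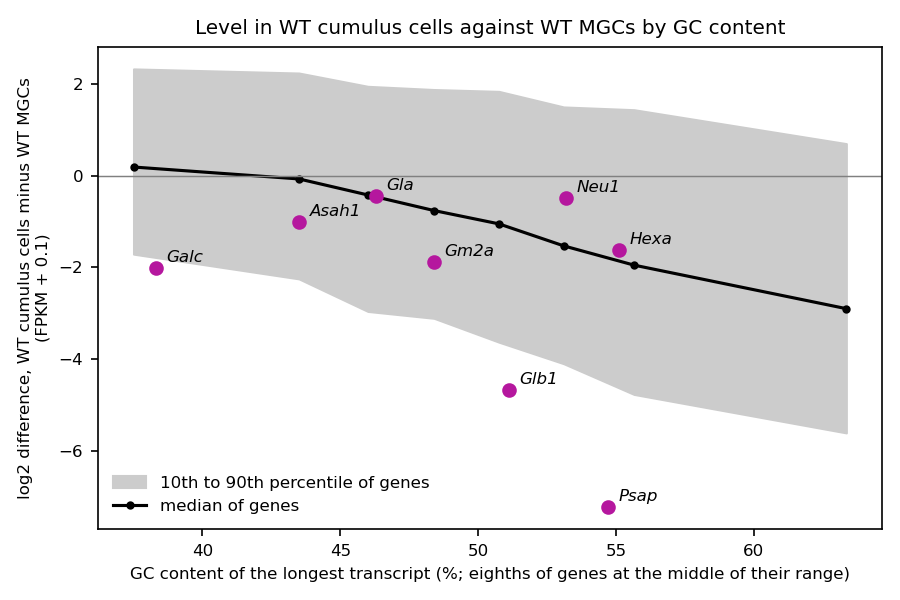
Log2 difference in level (FPKM + 0.1), WT cumulus cells minus WT MGCs, against the GC content of the longest transcript, with the median of each eighth of the genes (line), their 10th to 90th percentile (grey) and the 8 members (points). The genes are protein-coding ones whose mean reached 5 FPKM in WT MGCs, a choice that by itself favours differences below 0. The median declines from 0.19 to −2.90, and Psap (−7.23), Glb1 (−4.68) and Galc (−2.02) lie below the grey band.

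The rest of the lysosome was described from lists drawn up around the 8 genes. Of 12 other genes of lysosomal sphingolipid breakdown, 0 passed in MGCs (2 before adjustment, at 0.05 or less) with a median of −0.07, and in cumulus cells 3 of 11 tested rose and 0 fell, with a median of 0.09, where 22.3% of all genes passed (9.66% higher and 12.7% lower). Among them were Ctsa (0.73, limma adjusted p = 0.0202), the protective protein that holds Neu1 and Glb1 in a complex, and Grn (1.49, limma adjusted p = 0.011), whose product progranulin binds prosaposin. Grn had 3.50, 5.99 and 9.95 FPKM in WT cumulus cells against 20.7, 16.2 and 19.4 FPKM in those labelled Sphk1/2gc-/-. Ctsa was at 2.46 to 4.09 FPKM in WT and at 5.74 to 6.32 FPKM in the libraries labelled Sphk1/2gc-/-. Ctsa was at 10.3 times the level in WT MGCs that it had in WT cumulus cells, so that Ctsa and Glb1, but not Neu1, were far lower in the cumulus cell table. The acid sphingomyelinase Smpd1 did not pass in either cell type (−0.22 in MGCs and −0.56 in cumulus cells, limma adjusted p = 0.74 and 0.0731), and the sulphatase Arsa (−0.27 in MGCs, limma adjusted p = 0.632) was too low in cumulus cells to be tested.

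Of 24 other lysosomal hydrolases tested in cumulus cells, 5 rose and 0 fell, with a median of 0.24, again beside 22.3% of all genes past the limit, 9.66% higher and 12.7% lower. The cathepsins Ctsl (0.58, limma adjusted p = 0.0452) and Ctsb (0.85, limma adjusted p = 0.0347) and the protease Lgmn (0.63, limma adjusted p = 0.0304) were among them. The others were Ctsf (1.59, limma adjusted p = 0.00158) and the mannosidase Man2b1 (0.72, limma adjusted p = 0.0185), both with a mean over the 6 libraries below 5 FPKM and named after their values were seen. In MGCs 0 of 27 hydrolases passed (8 before adjustment), and there Ctsl was at 569 to 686 FPKM in WT and at 975 to 1203 FPKM in Sphk1/2gc-/- (0.84, limma adjusted p = 0.19). The count of hydrolases past the limit ran from 1 to 8 in cumulus cells and from 0 to 7 in MGCs over the alternative settings.

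Of 18 genes of the lysosomal membrane and proton pump tested in cumulus cells, 1 rose and 2 fell. There 22.3% of all genes passed, 9.66% higher and 12.7% lower. Lamp2, a major membrane protein, rose (0.50, limma adjusted p = 0.0474). The pump subunits Atp6v1d (−0.61, limma adjusted p = 0.04) and Atp6v0a1 (−0.49, limma adjusted p = 0.0369) fell. Of 11 genes that deliver enzymes to the lysosome, 2 rose and 0 fell, beside the same shares of all genes. These were the sorting adaptors Gga2 (0.84, limma adjusted p = 0.00828) and Gga3 (0.45, limma adjusted p = 0.0453). Of 5 regulators of lysosomal genes and 6 genes of breakdown outside the lysosome, 0 passed, with 1 and 0 before adjustment. In MGCs 0 genes of any of these lists passed in limma, of 21, 11, 5 and 7 tested, with 1, 2, 0 and 0 before adjustment. Over the alternative settings up to 5, 2, 2 and 1 of them passed. Tfeb, which encodes the factor named with the promoters, was too low to be tested in either cell type. Over both genotypes it was at 0.2615 to 0.5992 FPKM in MGCs and at 0 to 0.02009 FPKM in cumulus cells. Tfeb, Atp6v0a1 and Gga3 were named after their values were seen.

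The genes that make the substrates of these enzymes were also read. In cumulus cells 4 of 9 were high enough to test, and 2 rose and 1 fell, beside 9.66% of all genes higher and 12.7% lower. Ugcg, which makes glucosylceramide, rose from 36.0, 33.3 and 34.1 FPKM in WT to 54.0, 57.9 and 54.3 FPKM under the knockout label (0.67, limma adjusted p = 0.0111). St3gal5, the synthase of ganglioside GM3, fell from 69.0, 79.6 and 93.6 FPKM to 59.2, 32.1 and 38.5 FPKM (−0.92, limma adjusted p = 0.0279). A4galt, which makes the globoside that Gla degrades, rose from 2.06, 2.10 and 2.49 FPKM to 5.72, 4.90 and 9.05 FPKM (1.20, limma adjusted p = 0.00697) and was named after its values were seen, as its mean over the 6 libraries is below 5 FPKM. In MGCs 0 of 9 passed in limma, with 3 before adjustment and 0 to 3 past the limit over the alternative settings, and Ugcg was at 20.2 to 29.5 FPKM in WT against 31.3 to 51.5 FPKM in the knockout (0.67, limma adjusted p = 0.463).

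Not all of these calls in cumulus cells were firm. Grn and Gga2 each passed in 13 of 14 alternative settings, Ugcg in 12 of 14, and Ctsf and A4galt in 13 of the 13 that could test them. Ctsa, Ctsb and Lgmn passed in 8 of 14, Man2b1 in 7 of 13, Ctsl and St3gal5 in 6 of 14, Gga3 in 5 of 13, Atp6v1d in 5 of 14, Lamp2 in 4 of 14 and Atp6v0a1 in 3 of 13. The direction was the same in every one of those settings.

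**Figure D4:**
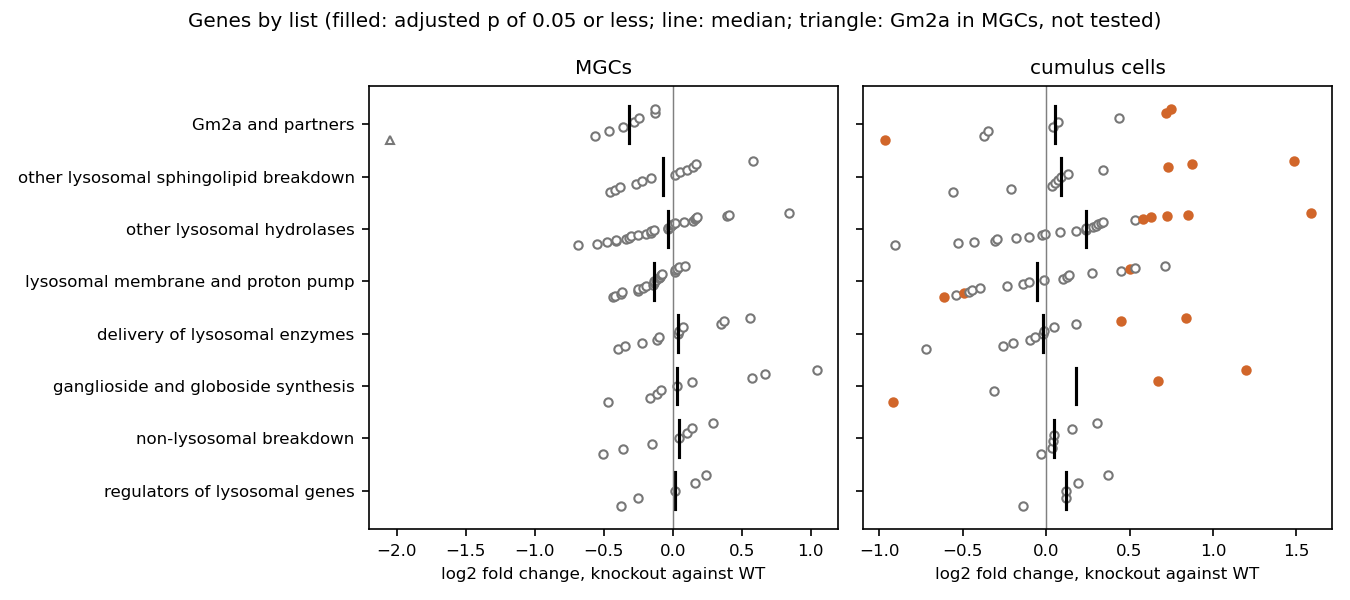
Log2 fold change of FPKM + 1, Sphk1/2gc-/- against WT, of each tested gene (points) in 8 lists, in MGCs (left) and cumulus cells (right), with the median of a list as a line, filled points for a limma adjusted p of 0.05 or less and a triangle for Gm2a in MGCs (−2.05), which was not tested. No point is filled in MGCs, and in cumulus cells filled points lie on both sides of 0, with 5 of 24 hydrolases to the right.

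Marker transcripts also moved in cumulus cells. The 9 macrophage markers summed to 38.1, 2.32 and 9.92 FPKM in WT libraries against 53.0, 8.89 and 67.9 FPKM under the knockout label. Lyz2 alone made up 34.7, 1.01 and 5.84 FPKM of this in WT and 35.6, 4.58 and 47.4 FPKM under the knockout label. Of the 5 tested, 3 passed higher in limma and 0 lower (median log2 fold change 1.33), beside 9.66% of all genes higher. Over the alternative settings 0 to 3 passed. In WT the library with the highest sum, most of it Lyz2, had the lowest Hexa (11.6 FPKM) and Grn (3.50 FPKM). Among the other markers in WT, C1qb was highest in library 1 (1.37 FPKM) and Cd68 in library 3 (2.63 FPKM). In the knockout the library with the lowest sum had the lowest Hexa (22.6 FPKM) and Grn (16.2 FPKM). The 7 granulosa cell markers summed to 2650 to 3690 FPKM in WT and to 2330 to 2660 FPKM under the knockout label, with Inha alone at 1213 to 2114 and 1772 to 1966 FPKM. Of these 7, 5 passed lower in limma and 0 higher, 3 by 2-fold or more (median log2 fold change −0.724), beside 12.7% of all genes lower. The 3 markers of mural granulosa cells summed to 27.6 to 72.3 and 22.4 to 44.8 FPKM, and 2 passed lower (median −1.735). The 5 cumulus cell markers summed to 327 to 723 and 1100 to 1350 FPKM, and 2 passed higher (median 0.584). Over the alternative settings 2 to 5 granulosa cell markers and 0 to 2 mural ones passed. Theca cell markers (25.7 to 57.6 FPKM in WT and 10.4 to 13.1 FPKM in the libraries labelled Sphk1/2gc-/-), neutrophil markers (2.91 to 20.3 and 0.15 to 0.486 FPKM) and oocyte markers (1.81 to 4.57 and 1.20 to 1.52 FPKM) summed to less in the latter. Endothelial markers (at most 0.905 FPKM) and Ptprc (at most 0.0377 FPKM) were near 0 in both. The part of these in the changes of Gla, Hexa, Galc and the other lysosomal genes was not tested.

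The transcripts most like Gm2a over the 12 libraries were sought among the 4334 genes whose mean reached 5 FPKM in both tables, by the root mean square difference of log2(FPKM + 1) after each gene was centred on its own mean. The nearest were the predicted gene Gm3788 (0.524), Ltbp1 (0.541), which binds latent TGF-beta, Mgarp (0.546), a mitochondrial protein gene, Mro (0.554) and the chemokine receptor-like Ccrl2 (0.562). Ltbp1, for example, had means of 47.2 FPKM in WT MGCs, 17.9 in Sphk1/2gc-/- MGCs, 10.3 in WT cumulus cells and 6.14 in the libraries labelled Sphk1/2gc-/-. The partners were less alike, with Asah1 at 0.67 (rank 35), Gla at 0.70 (rank 66), Hexa at 0.766 (rank 227), Neu1 at 0.797 (rank 373) and Galc at 0.844 (rank 711), while Psap and Glb1 were below the level limit. As the drop of Gm2a in MGCs chose it, this likeness is a description.

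Some counts carry limits of annotation. Exons of Hexa overlap those of Tmem202, exons of Glb1 those of Tmppe and exons of Galc those of Gm47439, and whether strand was used in counting is not stated, so reads of these pairs cannot be told apart. The other 5 members have no such overlap. Exons of the targeted genes overlap others too, those of Sphk1 with Gm29292 and those of Sphk2 with Dbp and Rpl18, so the same limit holds for their levels.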

How the data were processed

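A company sequenced the RNA of both cell types, and the authors deposited FPKM values, 1 table for MGCs and 1 for cumulus cells. HISAT2 and GRCm38 are named in the submitters' processing notes, and the counting tool, annotation and settings are not given in the sources used here. Names, positions and exon lengths are those of GENCODE M21 (GRCm38), which lacks 64 (MGCs) and 66 (cumulus cells) of the listed genes, and 0 deposited columns were left unused. FPKM times exon length fell on whole reads for 90.6% to 92.1% of the values above 0 (tolerance 0.02 reads).

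The members and lists were chosen with earlier results of these data known. Genotypes were compared with limma 3.58.1 in R 4.3.3 (two-sided, intensity trend) on log2(FPKM + 1), which understates the change of low transcripts, for genes whose mean reached 0.5 FPKM in either genotype. A gene passed where p, adjusted by Benjamini-Hochberg over all genes tested, was 0.05 or less, and 2-fold counts are given beside. SE is the moderated standard error. The difference between cell types was the interaction of genotype and cell type over 12 libraries. Code was tested on simulated data. Gm2a in MGCs was not tested, as its value there chose it. Genes named beyond the members were those of the lists that passed and reached a mean of 5 FPKM, Smpd1, Arsa and Ctsa, the targeted genes and the 5 profiles nearest to Gm2a, and some results are not reported here. Python 3.11.15, pandas 2.3.3 and matplotlib 3.10.9 were used for summaries.

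The labels number the libraries but name no common animal. Deviations from the genotype means correlated at 0.220, 0.158 and 0.224 between MGC libraries that share a number, which is over the 0.1 set for a pairing, and the number was tried as a block. The alternatives were a pseudocount of 0.1, no filter, a filter at 5 FPKM, median-of-ratios size factors, no intensity trend, the block, each library left out, libraries 1 and 2 only, and limma voom on recovered reads.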

Additional observations from a re-analysis of the deposited data

Results flagged for a closer look

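Glb1 drew attention because its genotype effect differed between the cell types in the interaction test, by 1.00 on the log2 scale (cumulus cells minus MGCs, SE 0.246, limma adjusted p = 0.0457). It was −0.56 in MGCs (limma adjusted p = 0.349) and 0.44 in cumulus cells (limma adjusted p = 0.104), where Glb1 was at 31 to 91 reads per library. Over 20 alternative settings the difference ran from 0.86 to 1.48 and passed in 8. With 3 libraries per group, single libraries could not be tested as outliers.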

How the results depend on the processing

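Of the member estimates, 5 reversed with 1 library left out and 2 with libraries 1 and 2 alone. With no filter on low values the counts past the limit went from 2725 to 1240 genes in cumulus cells, from 3 to 1 members, from 3 to 0 other sphingolipid genes, from 6 to 1 genes in MGCs and from 1 to 0 partners in the interaction. A filter at 5 FPKM gave 1807 genes in cumulus cells and 1 in MGCs, and left Glb1 and Psap untested in cumulus cells. Size factors gave 1 gene in MGCs and 0 partners in the interaction, a pseudocount of 0.1 gave 0 there, and voom gave 0 there (4 at an unadjusted p of 0.05 or less) and 0 genes in MGCs (1215). Libraries 1 and 2 alone gave 715 genes, 0 members and 1 other sphingolipid gene in cumulus cells, 2486 genes in MGCs and 3 partners in the interaction, and reversed Gla (0.0036) and Asah1 (0.0253) in MGCs. With 1 library left out the counts ran from 1319 to 3930 genes, 1 to 4 members and 1 to 4 other sphingolipid genes in cumulus cells, 0 to 278 genes (278 without Sphk1/2gc-/- library 3) and 0 partners in MGCs, and 0 to 2 partners in the interaction. Neu1 in cumulus cells turned to −0.23 without WT library 1 and −0.15 without knockout library 1, and Psap to −0.008 without WT library 1. Their highest values were 0.283 and 0.1669. In the interaction Neu1 turned to −0.0983 and −0.0153 without those cumulus cell libraries, with a highest value of 0.4153. The cause of these moves was not tested. Some settings also differed from the main one in the number of samples or of genes tested, and the part of that was not tested either.

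With the replicate number as a block, MGCs had 3 genes past the limit and 0 partners, cumulus cells had 1997 genes and 2 members, with Hexa at 0.75 (limma adjusted p = 0.0666), and the interaction kept 1 partner. In cumulus cells libraries of a number correlated at −0.148, −0.0511 and 0.115 and so share only a number. Depth limits Glb1 (31 to 91 reads) and Psap (84 to 136 reads) in cumulus cells.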
